A study of Mus musculus with 14 samples.

Results

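The membrane carriers examined here are the genes of the solute carrier families (symbols beginning with Slco, or with Slc, a number and the letter a), without the mitochondrial Slc25 family. Members were chosen by gene symbol alone, from the array's annotation, and each gene was represented by the probe set with the highest mean over all arrays. This gave 224 genes, with 349 probe sets, out of 12394 genes on the array that had a single symbol. Of the 224 genes, 136 passed the filter on low intensities and were tested, and 88 did not and were not tested.

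RNA had been measured in whole liver of C57BL/6J mice made obese by diet, on 14 Affymetrix arrays with 1 sample each. The livers had been given vehicle (5 samples), an adenovirus carrying a hairpin RNA (shRNA) that targets GFP, green fluorescent protein (4 samples, numbered 1, 2, 3 and 5), or an adenovirus with an shRNA against Jnk1 (5 samples). GFP is a jellyfish protein that mice lack, so this virus was the control for adenovirus and hairpin, and all 3 groups shared the strain and the diet. The labels do not say whether the samples came from separate mice or whether the viruses were given at equal dose, so p-values reflect only the spread among the arrays, which may be technical.

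Solute carriers move amino acids, sugars, bile acids, metals, vitamins and ions across the plasma membrane and the membranes of lysosomes, Golgi and other organelles. Some let their substrate run down its gradient and others couple it to sodium, protons or an exchanged solute. In liver, carriers on the blood side of the hepatocyte take up bile acids, drugs, amino acids and fatty acids and release glucose and ketone bodies, while Kupffer cells, endothelium and bile duct cells carry sets of their own. Jnk1, encoded by Mapk8, is a kinase activated by stress and by inflammatory signals.

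Mapk8 was lower on the Jnk1 shRNA arrays than on the GFP shRNA arrays, at 6.07 ± 0.18 (SD, n = 5) against 7.38 ± 0.09 (n = 4) in log2 intensity (log2 fold change -1.31, adjusted p = 3.50e-07 in limma). The arrays differed in other ways. The bacterial spike-in controls averaged 8.39 ± 0.32 (log2, SD, n = 5) on Jnk1 shRNA arrays, 8.89 ± 0.07 on the 4 GFP shRNA arrays and 8.90 ± 0.09 on the 5 vehicle arrays, and GFP array 2 was unlike the rest of its group (median intensity 58.3, mean correlation with the other 3 of 0.942). The largest deposited intensity was 4332 to 5522 on the Jnk1 shRNA arrays and 6105 to 8401 on all others. The signal of the 18S ribosomal RNA 5′ probe set was 53.3, 192, 383 and 689 on 4 Jnk1 shRNA arrays and 2062 on Jnk1 array 2, against 842 to 1676 on the others. The part of these differences in the results was not tested. Hepatocyte markers were high on every array. Their summed intensity over 9 genes was 39038 to 43045 with vehicle, 39383 to 41690 with GFP shRNA and 37864 to 39972 with Jnk1 shRNA. Of the 9, Hnf4a (-0.52) and Apoa1 (-0.18) were called lower against GFP shRNA, and 0 were called higher. None of 5 cholangiocyte markers passed the filter.

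Between Jnk1 shRNA and GFP shRNA livers, limma called a difference in 54 of the 136 carriers tested. Of these, 23 were higher and 31 lower, and 82 did not pass the test. The widest changes were a drop of Slc46a3, a lysosomal membrane carrier, and a rise of the probe set of Slc22a29, an organic anion carrier. Lower carriers included the bile acid and organic anion importer Slco1a1 and the glutamine carriers Slc38a2 and Slc38a3, and higher carriers included the monocarboxylate carrier Slc16a1 and the zinc carriers Slc39a4 and Slc30a1. The threshold for a call was an adjusted p under 0.05 in limma, over all 13575 probe sets kept, and a fold change is the difference between group means in log2 intensity.

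The share of carriers called was 39.7%, against 33.1% of all probe sets tested. The share called higher was 16.9% against 17.3% of all, and the share called lower was 22.8% against 15.8%. The median log2 fold change of the carriers was -0.11, against -0.01 over all probe sets. With the arrays scaled to the same median in place of quantile normalization, 27 carriers were higher and 19 lower, the median of all probe sets shifted to 0.09 and that of the carriers to 0.02. Without GFP array 2, 19 were higher and 31 lower. With the spike-in level added as covariate, 9 were higher and 18 lower. The share of carriers called was 33.8% with median scaling, against 30.4% of all probe sets. It was 37.6% against 31.0% without GFP array 2, and 19.9% against 17.3% with the covariate.

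Against vehicle, 20 carriers were higher with Jnk1 shRNA, 35 were lower and 81 did not pass. That is 40.4% called, against 37.6% of all probe sets, with 14.7% higher against 18.9% and 25.7% lower against 18.7%. The median was -0.15 for the carriers and -0.02 for all probe sets. With the spike-in covariate, 13 were higher and 27 lower, which is 29.4% called, against 22.2% of all probe sets. This comparison uses the same Jnk1 shRNA arrays as the comparison with GFP shRNA, so the values of each are given side by side below.

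GFP shRNA and vehicle differed in 0 of the 136 carriers in limma, while 2.58% of all probe sets were called, 2.05% higher and 0.530% lower. The count of 0 holds for the probe set chosen for each gene. Other probe sets of Slc45a2 (-1.57, adjusted p = 0.00351) and Slc40a1 (0.42, adjusted p = 0.0386) were called. At an unadjusted p under 0.05 there were 28 carriers, which is 20.6% of those tested, against 15.3% of all probe sets, and the lowest adjusted p was 0.0576, for the betaine carrier Slc6a12. The fit with array weights called 2 carriers higher and the deposited values without quantile normalization called 1. Without vehicle array 1 there was 1 carrier higher and 1 lower, and without GFP array 1 there was 1 higher and 2 lower. The median log2 fold change was -0.04 for the carriers and -0.02 for all probe sets.

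**Figure D1:**
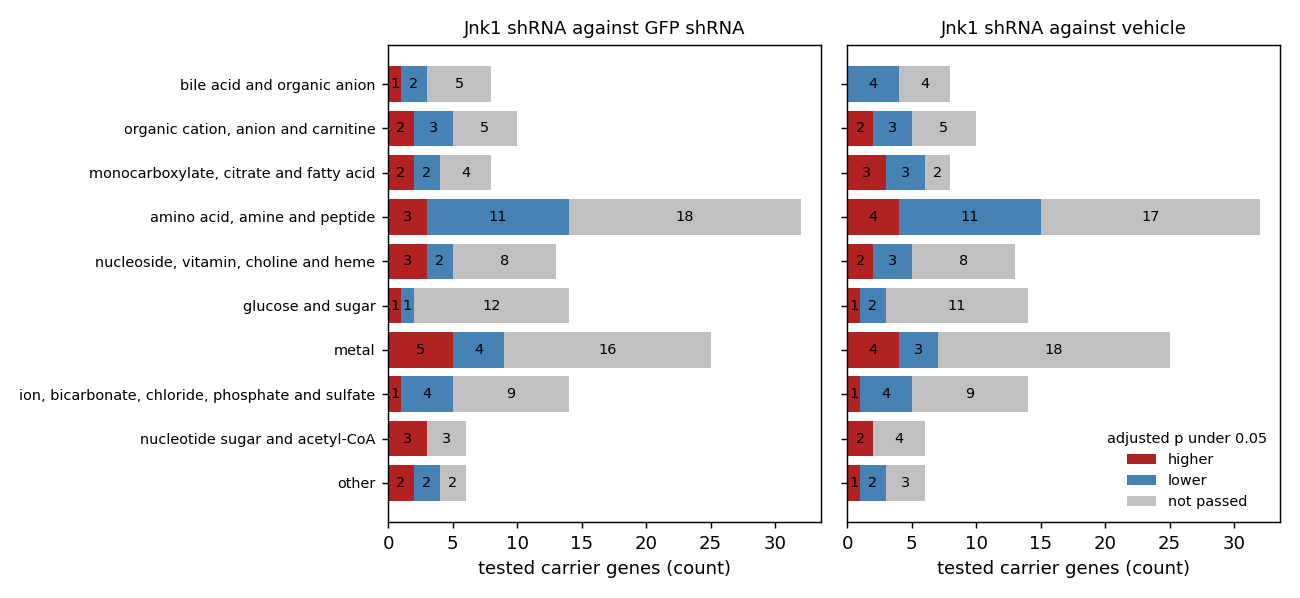
Number of tested carrier genes in each of 10 roles (bars; count on the horizontal axis) that were higher, lower or not past an adjusted p of 0.05 in limma, for Jnk1 shRNA against GFP shRNA (left) and against vehicle (right). Amino acid, amine and peptide carriers had the most genes lower, 11 of 32 in both comparisons, and 12 and 11 of the 14 glucose and sugar carriers did not pass. Of all probe sets tested, 33.1% and 37.6% were called, with 15.8% and 18.7% of all called lower.

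Some calls held under more settings than others. Every call was recomputed under the other normalizations, filters, variance models and fits, with the spike-in covariate and with each array left out in turn. Against GFP shRNA, 7 of the 23 higher carriers (Slc16a1, Slc22a29, Slc30a1, Slc30a6, Slc35a2, Slc39a4 and Slc44a1) and 12 of the 31 lower carriers kept their call in all of these. The 12 were Slc46a3, Slco1a1, Slc13a3, Slc1a2, Slc38a2, Slc38a3, Slc38a10, Slc31a1, Slc17a3, Slc6a9, Slc27a5 and Slc22a30. Against vehicle, 10 of 20 higher and 22 of 35 lower carriers did so. Slc30a1 and Slc35a2 were below the stricter filter of 60%, so this setting did not test them.

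**Figure D2:**
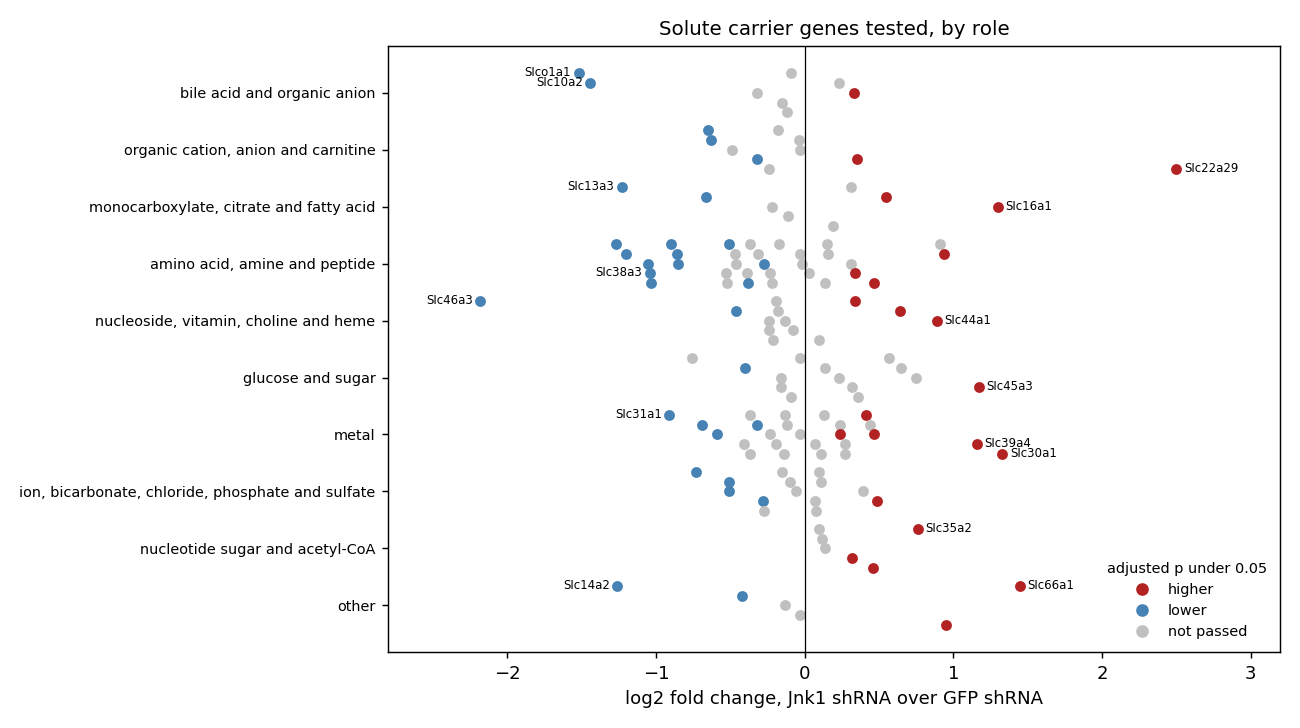
Log2 fold change of Jnk1 shRNA over GFP shRNA (horizontal axis) for each of the 136 tested carriers, 1 point per gene, in rows by role; red points were higher and blue points lower at an adjusted p under 0.05, grey points did not pass. Slc46a3 lies farthest left at -2.18 and Slc22a29 farthest right at 2.50, and the vertical offset within a row has no meaning.

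Among the 16 bile acid and organic anion carriers (Slco, Slc10 and Slc51a), 8 were tested. Against GFP shRNA 1 was higher and 2 lower, with 17.3% and 15.8% of all probe sets so called. Against vehicle 0 were higher and 4 lower, with 18.9% and 18.7% of all. The 1 higher gene was Slco2a1, a prostaglandin carrier, at 0.33 ± 0.12 (SE, adjusted p = 0.0380), and it lost its call without GFP arrays 1, 3 or 5 or Jnk1 arrays 1, 2 or 4. Slco1a1 takes up bile acids and other organic anions from sinusoidal blood. Its normalized intensity was 1234, 1456, 1527, 1584 and 1631 on the vehicle arrays, 1560, 1372, 1505 and 1393 with GFP shRNA and 652, 573, 228, 816 and 487 with Jnk1 shRNA. All 5 Jnk1 shRNA arrays lay below all others, with array 3 the lowest. Its log2 fold change came to -1.52 ± 0.25 (SE, adjusted p = 0.000201) against GFP shRNA and -1.54 ± 0.23 (SE, adjusted p = 7.16e-05) against vehicle. The second probe set of Slco1a1 gave -1.47 and -1.53.

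Slc10a1 encodes the sodium-dependent bile acid importer NTCP of the sinusoidal membrane. It read 2436, 2603, 2609, 2626 and 2739 with vehicle, 2492, 2066, 2282 and 2176 with GFP shRNA and 2107, 2171, 1850, 2140 and 1916 with Jnk1 shRNA. The Jnk1 shRNA arrays were below all vehicle arrays but overlapped the GFP shRNA arrays. This amounted to a log2 fold change of -0.36 ± 0.06 (SE, adjusted p = 0.000222) against vehicle, which passed, and -0.15 ± 0.06 (SE, adjusted p = 0.0944) against GFP shRNA, which did not (-0.19, adjusted p = 0.0472, without GFP array 2). GFP shRNA against vehicle gave -0.21 (adjusted p = 0.111), or -0.26 (adjusted p = 0.0486) without GFP array 1.

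Slc10a2 is the apical bile acid importer known from ileum and bile duct cells. The vehicle arrays were spread over 563, 136, 247, 370 and 347, the GFP shRNA arrays read 297, 415, 329 and 349, and the Jnk1 shRNA arrays 136, 124, 85.1, 135 and 174. It was lower than with GFP shRNA, at -1.44 ± 0.30 (SE, adjusted p = 0.00157) and than with vehicle, at -1.23 ± 0.28 (SE, adjusted p = 0.00247), with overlap between the Jnk1 shRNA and vehicle arrays. With the spike-in covariate the calls ended (-1.26, adjusted p = 0.0740 against GFP shRNA, and -1.05, adjusted p = 0.117 against vehicle). The 5 cholangiocyte markers on the array (Krt7, Krt19, Epcam, Sox9 and Cftr) had summed intensities of 69.9 to 99.1 with GFP shRNA and 54.2 to 88.6 with Jnk1 shRNA, and their part in the Slc10a2 value was not tested. In RNA from whole liver, fewer cells of a type and less RNA per cell cannot be told apart.

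The other sinusoidal organic anion importers had smaller differences. Slco1b2 gave -0.09 ± 0.07 (SE, adjusted p = 0.345) against GFP shRNA, and its call against vehicle, -0.18 ± 0.07 (SE, adjusted p = 0.0444), came to 0.00 with the spike-in covariate (adjusted p = 0.981) and was also lost on leaving out 1 array, for 10 of the 14 arrays. Slco1a4 had a log2 fold change of 0.23 ± 0.31 (SE, adjusted p = 0.599) against GFP shRNA and 0.10 ± 0.29 (SE, adjusted p = 0.810) against vehicle, neither past the test. Slc51a, a subunit of the basolateral bile acid exporter, was below the filter, at 13.9 to 35.5 on all 14 arrays.

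Bile acid genes outside the carriers moved in both directions. Of 28 genes in a list of synthesis enzymes, export pumps and regulators, 25 were on the array and all 25 were tested. Against GFP shRNA 6 were higher and 7 lower, with 33.1% of all probe sets called, and against vehicle 6 were higher and 9 lower, with 37.6% of all called. Between GFP shRNA and vehicle 0 passed. Nr0b2, the repressor SHP, rose by 2.20 ± 0.48 (SE, adjusted p = 0.00214) and Akr1d1, a reductase of bile acid synthesis, by 1.18 ± 0.07 (SE, adjusted p = 1.91e-08) against GFP shRNA. Nr1i3, the xenobiotic receptor CAR, was lower, at -1.39 ± 0.17 (SE, adjusted p = 1.36e-05), and Abcb11, the canalicular bile salt export pump, was lower, at -0.43 ± 0.11 (SE, adjusted p = 0.00684). Cyp7a1, the rate-limiting enzyme of classic bile acid synthesis, gave 0.85 ± 0.33 (SE, adjusted p = 0.0602) and did not pass. With the arrays scaled to the same median, 8 of these genes were higher and 2 lower against GFP shRNA.

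Of 19 organic cation, organic anion and carnitine carriers (Slc22 and Slc47), 10 were tested, and 2 were higher and 3 lower in both comparisons with Jnk1 shRNA. Over all probe sets the shares were 17.3% and 15.8% against GFP shRNA and 18.9% and 18.7% against vehicle. Against vehicle the count of higher genes was 1 without vehicle arrays 1 or 4 or Jnk1 arrays 1, 3, 4 or 5, each of which ended the call of Slc47a1. The probe set of Slc22a29 rose more than that of any other carrier tested. It read 19.7 to 43.5 on the 5 vehicle arrays, 64.7, 52.2, 71.4 and 64.5 with GFP shRNA and 256, 461, 535, 257 and 354 with Jnk1 shRNA. The 3 groups did not overlap. Jnk1 shRNA gave a log2 fold change of 2.50 ± 0.25 (SE, adjusted p = 1.84e-06) against GFP shRNA and 3.42 ± 0.23 (SE, adjusted p = 1.99e-08) against vehicle. GFP shRNA against vehicle gave 0.92 ± 0.25 (SE, adjusted p = 0.0644).

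The gene behind this signal is uncertain, because neighbouring Slc22 genes on chromosome 19 resemble each other and the probe set's name marks it as able to detect other transcripts. A probe set annotated to both Slc22a30 and Slc22a29 rose by 2.92 ± 0.23 (SE, adjusted p = 1.91e-07) against GFP shRNA. The only probe set of Slc22a27 read 5.74, 4.26, 2.01, 11.5 and 14.9 with vehicle, 2.01 to 24.2 with GFP shRNA and 96.2, 159, 235, 93.3 and 111 with Jnk1 shRNA. Its mean was under the filter, so it was not tested, but all 5 Jnk1 shRNA arrays were above the others. Its name marks it in the same way as that of Slc22a29, and whether both read the same transcript was not tested. The probe set annotated to Slc22a30 alone went the other way, as given below, and Slc22a26 did not pass (-0.49 ± 0.34, SE; adjusted p = 0.293).

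Slc22a30 read 1069, 1000, 1067, 1088 and 1121 with vehicle, 947, 907, 984 and 974 with GFP shRNA and 678, 673, 455, 671 and 629 with Jnk1 shRNA. It was lower, at -0.63 ± 0.10 (SE, adjusted p = 0.000137) against GFP shRNA and at -0.80 ± 0.09 (SE, adjusted p = 5.29e-06) against vehicle, with no overlap between the Jnk1 shRNA arrays and the others. Because the probe sets annotated to these neighbours moved in opposite directions, their upstream sequences are shown: 250 bases before the RefSeq start on GRCm38.p6, at chr19:8218901-8219150 for Slc22a29 and chr19:8405106-8405355 for Slc22a30, both on the minus strand and written 5′ to 3′. Capitals mark a match to GTTAAT, 1 of the 2 arms of the site of the hepatocyte factor HNF1, searched on both strands.
Slc22a29: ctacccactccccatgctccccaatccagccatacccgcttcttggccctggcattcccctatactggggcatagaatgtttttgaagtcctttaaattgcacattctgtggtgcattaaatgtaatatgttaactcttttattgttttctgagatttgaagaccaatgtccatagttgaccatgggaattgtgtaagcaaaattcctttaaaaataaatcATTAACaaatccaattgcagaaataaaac
Slc22a30: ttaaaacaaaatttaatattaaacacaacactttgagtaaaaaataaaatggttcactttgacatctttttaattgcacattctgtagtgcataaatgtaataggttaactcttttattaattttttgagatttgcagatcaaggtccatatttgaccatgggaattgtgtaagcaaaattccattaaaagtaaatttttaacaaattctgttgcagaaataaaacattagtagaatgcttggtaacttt
Aligned end to end, these windows were 64.7% identical. The Slc22a27 window, not shown, was 48.5% identical to that of Slc22a29 and 48.3% to that of Slc22a30. The 18 pairs of other windows compared lay between 34.9% and 53.7%. This arm occurred in the Slc22a29 window, 24 to 29 bases before the start, and not in these letters in the Slc22a30 window. It occurred in 6.52% of the 27025 gene windows in the table.

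The remaining carriers of this group changed less. Slc22a7, an organic anion carrier known as OAT2, was lower, at -0.65 ± 0.17 (SE, adjusted p = 0.00777) against GFP shRNA, a call that ended under median scaling (adjusted p = 0.0701). Slc47a1, which extrudes organic cations and is known as MATE1, was higher by 0.35 ± 0.08 (SE, adjusted p = 0.00279), a call lost with the spike-in covariate (0.22, adjusted p = 0.180). Slc22a5 imports carnitine and gave -0.32 ± 0.11 (SE, adjusted p = 0.0391), a call that was lost without any 1 of 7 arrays (GFP arrays 1, 2 and 3 and Jnk1 arrays 1, 2, 4 and 5) and under 5 other settings, with adjusted p up to 0.393.

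Of 16 monocarboxylate, citrate and fatty acid carriers (Slc5a8, Slc13, Slc16 and Slc27), 8 were tested. Against GFP shRNA 2 were higher and 2 lower, with 17.3% and 15.8% of all probe sets so called. Against vehicle 3 were higher and 3 lower, with 18.9% and 18.7% of all. Slc16a1 moves lactate, pyruvate and ketone bodies with a proton and is known as MCT1. It read 406, 312, 395, 392 and 397 with vehicle, 421, 441, 506 and 414 with GFP shRNA and 1141, 952, 1233, 1102 and 1063 with Jnk1 shRNA. Every Jnk1 shRNA array was above every other array. It rose 2.46-fold over GFP shRNA, a log2 fold change of 1.30 ± 0.10 (SE, adjusted p = 9.60e-08), and by 1.53 ± 0.09 (SE, adjusted p = 4.25e-09) over vehicle.

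Slc16a6, a carrier for ketone bodies, read 56.2, 47.2, 62.0, 48.1 and 40.8 with vehicle, 57.9, 112, 68.1 and 85.2 with GFP shRNA and 70.2, 102, 107, 117 and 95.8 with Jnk1 shRNA. It was higher with Jnk1 shRNA than with vehicle by 0.95 ± 0.18 (SE, adjusted p = 0.000660). Against GFP shRNA the value was 0.31 ± 0.19 (SE, adjusted p = 0.241), and those arrays overlapped. Slc13a3, a sodium-coupled dicarboxylate carrier, read 136, 120, 109, 84.1 and 95.1, 118, 119, 142 and 122 and 69.9, 64.8, 56.9, 42.3 and 39.8 in the same group order. All Jnk1 shRNA arrays were below the rest, with a log2 fold change of -1.23 ± 0.18 (SE, adjusted p = 6.98e-05) against GFP shRNA and -1.01 ± 0.17 (SE, adjusted p = 0.000177) against vehicle.

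The fatty acid transport proteins differed in direction. Slc27a5, which activates bile acids and very long chain fatty acids in hepatocytes, read 3044, 3084, 3128, 3245 and 3069 with vehicle, 2988, 2739, 2866 and 2646 with GFP shRNA and 1954, 1828, 1515, 1714 and 1922 with Jnk1 shRNA. It was lower, at -0.66 ± 0.07 (SE, adjusted p = 2.45e-06) against GFP shRNA and at -0.81 ± 0.06 (SE, adjusted p = 8.46e-08) against vehicle, without overlap. Slc27a4 was higher by 0.55 ± 0.11 (SE, adjusted p = 0.00134) against GFP shRNA and by 0.59 ± 0.11 (SE, adjusted p = 0.000343) against vehicle. The first of these calls was lost with the spike-in covariate (0.48, adjusted p = 0.0620). Slc27a2 was lower than with vehicle, at -0.24 ± 0.07 (SE, adjusted p = 0.0151) and gave -0.11 ± 0.08 (SE, adjusted p = 0.293) against GFP shRNA.

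**Figure D3:**
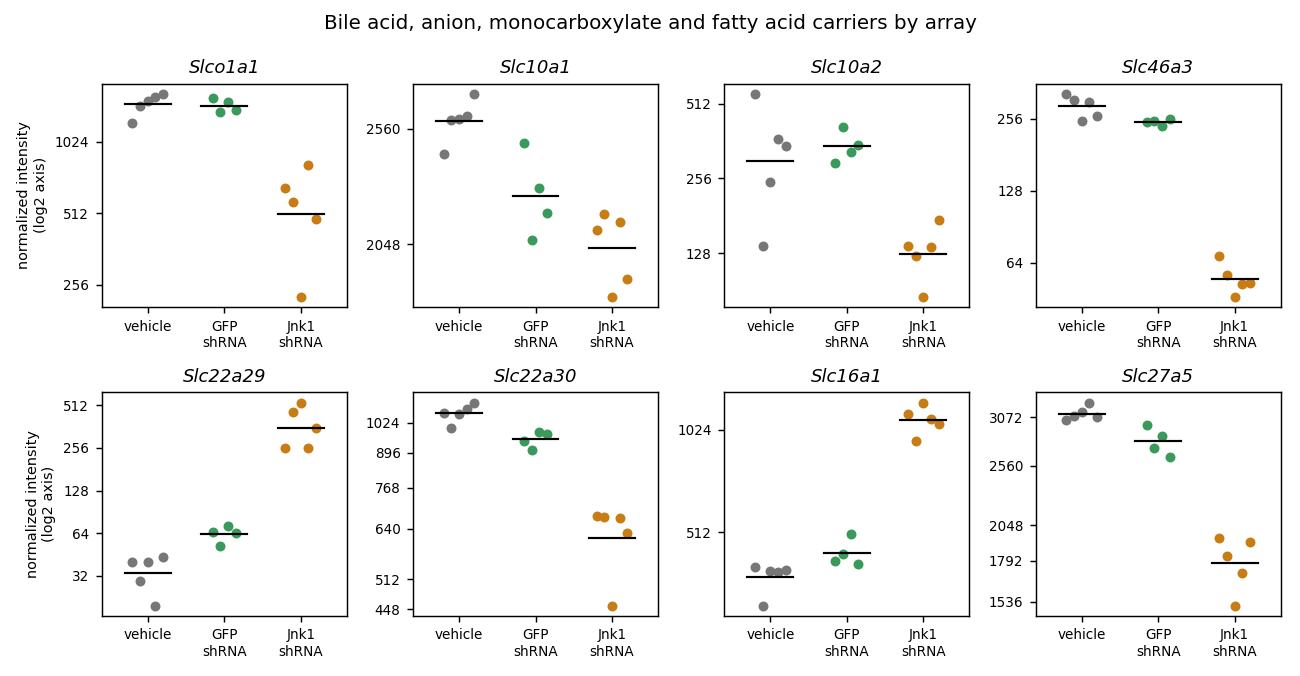
Normalized intensity (vertical axis, log2 scale) of 8 bile acid, anion, monocarboxylate and fatty acid carriers on each array; points are arrays in the groups vehicle (5), GFP shRNA (4) and Jnk1 shRNA (5), and bars are geometric means. For Slco1a1, Slc46a3, Slc22a30 and Slc27a5 all Jnk1 shRNA points lie below the others, and for Slc22a29 and Slc16a1 all lie above.

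The amino acid, amine and peptide carriers formed the largest group, with 32 of 56 genes tested. Against GFP shRNA 3 were higher and 11 lower, with a median log2 fold change of -0.34, and against vehicle 4 were higher and 11 lower, with a median of -0.23. All probe sets gave 17.3% higher, 15.8% lower and a median of -0.01 against GFP shRNA. Against vehicle they gave 18.9%, 18.7% and -0.02. In this group, GFP shRNA against vehicle had a median of -0.01 and 0 calls. The count of 3 higher fell to 1 without GFP arrays 2 or 5 or Jnk1 arrays 1, 3 or 5. The group follows gene families, so it also holds Slc17 carriers that move phosphate, urate and other anions.

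Among the sodium-coupled neutral amino acid carriers, the Slc38 family, Slc38a2, Slc38a3, Slc38a4 and Slc38a10 were lower and Slc38a1 did not pass (-0.03 ± 0.20, SE; adjusted p = 0.936). Slc38a3 carries glutamine in hepatocytes. It read 2332, 2548, 2681, 2739 and 2847 with vehicle, 2488, 2060, 2148 and 2071 with GFP shRNA and 1296, 974, 865, 1064 and 1179 with Jnk1 shRNA. Every Jnk1 shRNA array was below every other array. Its log2 fold change came to -1.04 ± 0.10 (SE, adjusted p = 1.57e-06) against GFP shRNA and -1.30 ± 0.10 (SE, adjusted p = 4.06e-08) against vehicle.

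Slc38a2, an importer of small neutral amino acids known as SNAT2, read 1344, 1451, 1755, 1347 and 1525 with vehicle, 1353, 1039, 1279 and 1147 with GFP shRNA and 542, 628, 564, 427 and 788 with Jnk1 shRNA. The groups with and without the Jnk1 hairpin did not overlap, with -1.05 ± 0.14 (SE, adjusted p = 2.75e-05) against GFP shRNA and -1.35 ± 0.13 (SE, adjusted p = 7.09e-07) against vehicle. Slc38a4 fell less, at -0.38 ± 0.07 (SE, adjusted p = 0.000467) against GFP shRNA and at -0.56 ± 0.06 (SE, adjusted p = 4.90e-06) against vehicle. The first of these was lost under median scaling (adjusted p = 0.132). Slc38a10 was lower, at -0.85 ± 0.08 (SE, adjusted p = 1.94e-06) against GFP shRNA. Its other probe sets tested were dimmer and gave -0.56, -0.43, -0.42 and -0.40. Of these, that at -0.42 did not pass (adjusted p = 0.0522).

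Slc1a2, Slc6a9 and Slc7a2, which carry other amino acids, were lower than with GFP shRNA. Slc1a2, the glutamate importer GLT-1, read 178, 222, 191, 179 and 229 with vehicle, 202, 157, 210 and 203 with GFP shRNA and 93.1, 99.9, 70.8, 70.0 and 87.4 with Jnk1 shRNA. All Jnk1 shRNA arrays were at or below 99.9 and all others at or above 157, and its log2 fold change came to -1.20 ± 0.13 (SE, adjusted p = 5.69e-06) against GFP shRNA. Slc6a9, the glycine importer GlyT1, read 190, 165, 146, 132 and 157, 156, 145, 137 and 152 and 89.9, 58.6, 70.8, 106 and 88.5 in the same order. Its Jnk1 shRNA arrays were also below all others, at -0.86 ± 0.15 (SE, adjusted p = 0.000393) against GFP shRNA. Slc7a2 imports arginine and other cationic amino acids. It read 302, 614, 540, 581 and 482 with vehicle, 558, 416, 284 and 348 with GFP shRNA and 175, 240, 172, 174 and 203 with Jnk1 shRNA, a log2 fold change of -1.03 ± 0.20 (SE, adjusted p = 0.00110) against GFP shRNA and -1.36 ± 0.19 (SE, adjusted p = 3.95e-05) against vehicle. The other 2 probe sets of Slc7a2 gave -1.14 and -0.94 against GFP shRNA. The call of Slc7a2 against GFP shRNA was lost with the spike-in covariate (-0.87, adjusted p = 0.0677).

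Slc17a3, a carrier of urate and other organic anions, was lower, at -0.90 ± 0.10 (SE, adjusted p = 6.30e-06) against GFP shRNA and -0.89 ± 0.10 (SE, adjusted p = 2.18e-06) against vehicle. Slc3a2, the heavy chain that brings several amino acid exchangers to the membrane, was lower than with vehicle, at -0.58 ± 0.09 (SE, adjusted p = 0.000147). Against GFP shRNA it gave -0.27 ± 0.10 (SE, adjusted p = 0.0461), and this call ended in 18 of the alternative fits, 11 of them with 1 array left out. Slc15a4, a lysosomal histidine and peptide exporter, read 91.0, 139, 104, 101 and 89.8 with vehicle, 165, 108, 115 and 91.1 with GFP shRNA and 185, 143, 171, 154 and 161 with Jnk1 shRNA. It was higher than all vehicle arrays, by 0.65 ± 0.15 (SE, adjusted p = 0.00305), and overlapped GFP shRNA (0.47 ± 0.16, SE; adjusted p = 0.0332). The first call was lost with the spike-in covariate, and the second without GFP arrays 2, 3 or 5 or Jnk1 arrays 1, 3 or 5 as well. Slc7a11, the cystine and glutamate exchanger, was below the filter. Slc6a12, which imports betaine, was lower than with vehicle, at -0.90 ± 0.13 (SE, adjusted p = 5.47e-05) and gave -0.37 ± 0.14 (SE, adjusted p = 0.0536) against GFP shRNA, which passed without GFP array 2 (-0.48, adjusted p = 0.0178) or 3 (-0.44, adjusted p = 0.0369). Slc6a6, the taurine importer, and Slc3a1, the heavy chain of a cystine carrier, passed in neither comparison, although Slc6a6 passed against vehicle without GFP array 2 (-0.40, adjusted p = 0.0243). The dimmer Slc15a2, a peptide importer, was lower than with GFP shRNA, at -1.27 ± 0.47 (SE, adjusted p = 0.0488), with overlapping arrays. That call was lost under 5 other settings and without any 1 of 9 arrays (adjusted p up to 0.125), namely vehicle 1, 4 and 5, each of the 4 GFP arrays and Jnk1 2 and 5.

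A few amino acid carriers were higher. Slc66a1 exports lysine and arginine from lysosomes and was classed outside the families above. It read 42.0, 70.6, 66.7, 45.7 and 61.8 with vehicle, 74.4, 24.9, 50.2 and 95.5 with GFP shRNA and 171, 137, 144, 159 and 137 with Jnk1 shRNA. The lowest Jnk1 shRNA array was above the highest of the others. This amounted to a log2 fold change of 1.45 ± 0.29 (SE, adjusted p = 0.00109) against GFP shRNA and 1.41 ± 0.27 (SE, adjusted p = 0.000641) against vehicle. Without GFP array 2 the first became 1.09, adjusted p = 0.00108, and with the spike-in covariate both calls were lost (1.31, adjusted p = 0.0551, and 1.27, adjusted p = 0.0513).

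The related neutral amino acid exchangers Slc1a4 and Slc1a5 were dim. Slc1a4 read 32.8, 34.0, 20.8, 3.49 and 25.2 with vehicle, 22.8, 32.9, 36.5 and 24.6 with GFP shRNA and 54.8, 40.8, 66.2, 61.8 and 48.9 with Jnk1 shRNA. It was higher than with vehicle by 1.56 ± 0.47 (SE, adjusted p = 0.0158). Its mean over the vehicle and GFP shRNA arrays was 22.3, under the lowest mean kept by the filter (28.4), so it was tested only because of its level on the Jnk1 shRNA arrays and its call supports nothing. Vehicle array 4 was far below the rest, and without it the log2 fold change was 0.96 (adjusted p = 0.00329). With the spike-in covariate that call was lost (1.00, adjusted p = 0.382). Against GFP shRNA Slc1a4 did not pass (0.91 ± 0.50, SE; adjusted p = 0.181), although the arrays did not overlap, and without vehicle array 4 the same 0.91 had an adjusted p of 0.00538. Slc1a5 read 20.7, 37.4, 34.6, 62.3 and 52.2, 42.9, 14.6, 39.4 and 32.9 and 55.7, 53.5, 58.2, 55.4 and 65.5 in the same group order. Its call against GFP shRNA, 0.94 ± 0.32 (SE, adjusted p = 0.0331), was lost without GFP array 2 (0.60, adjusted p = 0.111) and also without GFP array 5 or Jnk1 arrays 1, 3, 4 or 5 (adjusted p up to 0.138 over all settings).

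**Figure D4:**
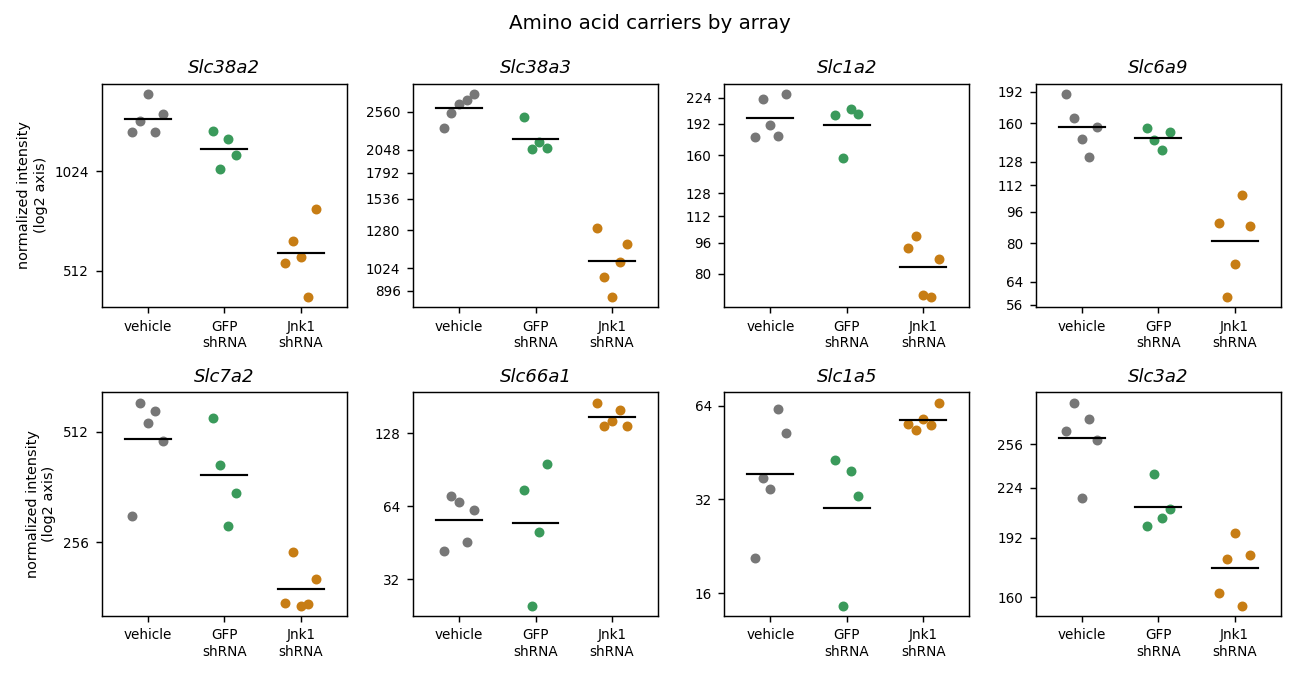
Normalized intensity (vertical axis, log2 scale) of 8 amino acid carriers on each array, with arrays as points in the groups vehicle (5), GFP shRNA (4) and Jnk1 shRNA (5) and geometric means as bars. The Jnk1 shRNA points of Slc38a2, Slc38a3, Slc1a2, Slc6a9 and Slc7a2 lie below the others and those of Slc66a1 above, while Slc1a5 overlaps with vehicle and its lowest point is GFP array 2 at 14.6.

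Carriers known from macrophages were set beside the macrophage markers. Slc11a1 exports iron and manganese from phagosomes. It read 122, 99.3, 82.9, 87.1 and 90.9 with vehicle, 114, 179, 126 and 117 with GFP shRNA and 104, 107, 111, 101 and 90.2 with Jnk1 shRNA, and its value against GFP shRNA, -0.37 ± 0.14 (SE, adjusted p = 0.0593), did not pass, although those arrays did not overlap. It passed without vehicle array 1 (adjusted p = 0.0415) or GFP array 1 (adjusted p = 0.0419). Slc15a3, an endosomal peptide carrier, gave -0.23 ± 0.17 (SE, adjusted p = 0.328) against GFP shRNA. Of the 8 Kupffer cell and macrophage markers tested, 0 were higher and 7 lower against GFP shRNA, with a median of -0.74. Of all probe sets tested, 17.3% were higher and 15.8% lower in that comparison. Against vehicle 0 were higher and 4 lower, with 18.9% and 18.7% of all probe sets so called. Between GFP shRNA and vehicle 2 were higher and 2 lower, with 2.05% and 0.530% of all. In the last comparison Clec4f and Vsig4, markers of resident Kupffer cells, changed at -1.98 ± 0.14 (SE, adjusted p = 6.34e-07 in limma) and -2.06 ± 0.18 (adjusted p = 5.11e-06), and the macrophage gene Mpeg1 by 1.56 ± 0.16 (adjusted p = 2.81e-05). The summed intensity of these markers was 4496 to 5013 with GFP shRNA, 2355 to 2912 with Jnk1 shRNA and 2594 to 4534 with vehicle. Of the 9 on the array, Marco did not pass the filter. The part of these cells in the carrier values was not tested.

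Of 26 metal carriers (Slc11, Slc30, Slc31, Slc39, Slc40 and Slc41), 25 were tested. Against GFP shRNA 5 were higher and 4 lower, with 17.3% and 15.8% of all probe sets so called. Against vehicle 4 were higher and 3 lower, with 18.9% and 18.7% of all. The zinc carriers did not share 1 direction. Slc39a4, the zinc importer ZIP4, read 112, 132, 152, 129 and 110 with vehicle, 82.2, 140, 88.8 and 110 with GFP shRNA and 226, 201, 250, 235 and 242 with Jnk1 shRNA. All Jnk1 shRNA arrays were above all others, with 1.16 ± 0.14 (SE, adjusted p = 1.64e-05) against GFP shRNA and 0.87 ± 0.14 (SE, adjusted p = 0.000104) against vehicle.

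Slc30a1, which exports zinc across the plasma membrane, read 50.3, 58.2, 63.2, 52.4 and 47.6 with vehicle, 54.1, 13.0, 32.5 and 39.1 with GFP shRNA and 74.2, 76.1, 63.1, 94.5 and 81.5 with Jnk1 shRNA. It was higher than with GFP shRNA by 1.33 ± 0.29 (SE, adjusted p = 0.00233), and without the low GFP array 2 by 0.93 (adjusted p = 0.00107). The Jnk1 shRNA arrays overlapped the vehicle arrays by 1 array of each group, with 0.51 ± 0.27 (SE, adjusted p = 0.159) against vehicle, which did not pass (0.52, adjusted p = 0.0134, without GFP array 2). Slc30a6, a zinc carrier of the Golgi, was higher by 0.47 ± 0.11 (SE, adjusted p = 0.00422) against GFP shRNA. Slc30a9 was higher by 0.41 ± 0.12 (SE, adjusted p = 0.0167), a call lost without GFP array 2 (0.28, adjusted p = 0.0599). Slc39a1 was lower, at -0.59 ± 0.17 (SE, adjusted p = 0.0135), a call lost under median scaling (adjusted p = 0.198) and with the spike-in covariate (-0.43, adjusted p = 0.270). Slc39a14, a zinc and iron importer of hepatocytes, did not pass (-0.19 ± 0.12, SE; adjusted p = 0.236), but did without Jnk1 array 1 (-0.29, adjusted p = 0.0383). Its other probe set, which was dimmer, was called lower, at -0.41 (adjusted p = 0.0298) against GFP shRNA and -0.54 (adjusted p = 0.00358) against vehicle.

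Metal response elements, bound by the zinc-sensing factor MTF1, share the core TGCGCNC or TGCACNC, where N is any base. The 250 bases before the RefSeq start are shown for Slc30a1 (chr1:191906531-191906780, plus strand) and for Slc66a1 (chr4:139310709-139310958, minus strand), both higher than with GFP shRNA, on GRCm38.p6 and 5′ to 3′. Capitals mark either core on either strand.
Slc30a1: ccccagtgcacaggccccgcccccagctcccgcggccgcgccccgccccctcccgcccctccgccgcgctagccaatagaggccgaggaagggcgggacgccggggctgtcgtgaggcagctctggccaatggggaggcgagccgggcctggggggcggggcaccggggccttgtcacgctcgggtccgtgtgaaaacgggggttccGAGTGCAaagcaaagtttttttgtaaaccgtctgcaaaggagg
Slc66a1: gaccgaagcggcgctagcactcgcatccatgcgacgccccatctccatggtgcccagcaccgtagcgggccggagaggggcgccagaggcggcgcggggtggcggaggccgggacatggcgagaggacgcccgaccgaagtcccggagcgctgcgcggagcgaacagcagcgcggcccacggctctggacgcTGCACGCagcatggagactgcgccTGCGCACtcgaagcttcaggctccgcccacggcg
The Slc30a1 window held 1 match, to the second form, 37 to 43 bases before the start. The Slc66a1 window held 1 match to each form, 28 to 34 and 52 to 58 bases before the start. The first form occurred in 12.6% of all 27025 gene windows and the second in 10.2%. Among the 174 carriers with a window, the first form occurred in 15.5%. It occurred in 5 of the 17 that were higher against GFP shRNA and in 3 of the 24 that were lower. The second form occurred in 2 of the 17 and 3 of the 24, among the lower ones in the window of Slc46a3, 115 to 121 bases before its start. Other motifs were searched in the same windows. The AP-1 motif TGAGTCA occurred in 0 of the 17 and 2 of the 24. The nuclear receptor motif AGGTCA occurred in 1 of the 17 and 3 of the 24. The amino acid response motif TTGCATCA occurred in 0 and 1, and GTTAAT in 1 and 1. Of all gene windows, 4.43% held TGAGTCA, 13.8% AGGTCA, 0.818% TTGCATCA and 6.52% GTTAAT. These counts are a description only.

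The copper importer Slc31a1 was lower. It read 487, 563, 470, 480 and 510 with vehicle, 506, 501, 489 and 493 with GFP shRNA and 279, 259, 258, 250 and 278 with Jnk1 shRNA. No Jnk1 shRNA array reached 280, and no other array was below 470. Jnk1 shRNA gave a log2 fold change of -0.91 ± 0.07 (SE, adjusted p = 1.82e-07) against GFP shRNA and -0.92 ± 0.07 (SE, adjusted p = 3.72e-08) against vehicle. Slc40a1, the iron exporter ferroportin, read 1121, 866, 1148, 1110 and 1040 with vehicle, 1222, 1182, 1244 and 1297 with GFP shRNA and 1375, 1447, 1371, 1487 and 1656 with Jnk1 shRNA. The Jnk1 shRNA arrays did not overlap with the others, with log2 fold changes of 0.48 ± 0.08 (SE, adjusted p = 0.000130) against vehicle and 0.24 ± 0.08 (SE, adjusted p = 0.0298) against GFP shRNA. The second call was lost without GFP arrays 1, 2 or 3 or Jnk1 arrays 4 or 5 (adjusted p up to 0.0789 over all settings). The other probe set of Slc40a1 gave 0.71 (adjusted p = 2.56e-05) against vehicle and 0.29 (adjusted p = 0.0409) against GFP shRNA. It was also higher with GFP shRNA than with vehicle, by 0.42 (adjusted p = 0.0386). Slc11a2, an importer of ferrous iron, passed in neither comparison, and without GFP array 2 gave 0.41 (adjusted p = 0.0365) against GFP shRNA. The magnesium carrier Slc41a2 was lower, at -0.69 ± 0.19 (SE, adjusted p = 0.0106) against GFP shRNA, a call lost with the spike-in covariate (-0.73, adjusted p = 0.102).

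**Figure D5:**
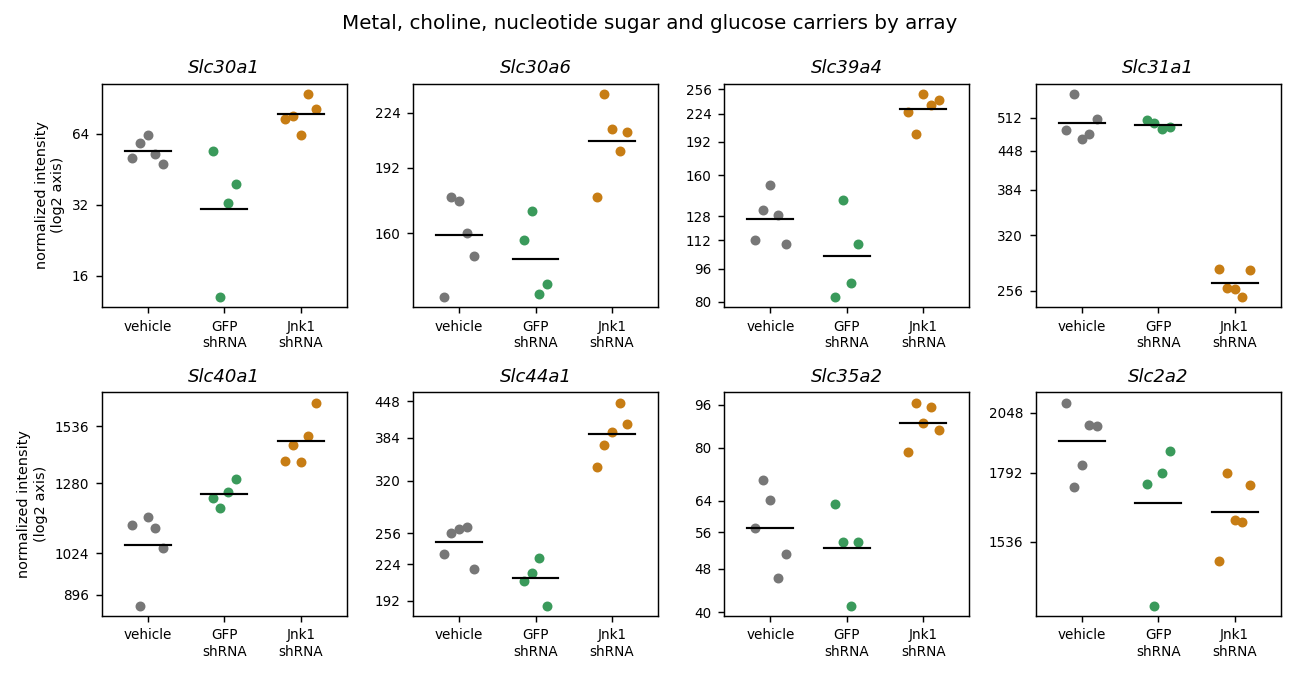
Normalized intensity (vertical axis, log2 scale) of 8 metal, choline, nucleotide sugar and glucose carriers on each array, with arrays as points in the groups vehicle (5), GFP shRNA (4) and Jnk1 shRNA (5) and geometric means as bars. The Jnk1 shRNA points of Slc39a4, Slc44a1 and Slc35a2 lie above all others and those of Slc31a1 below, while Slc2a2 overlaps between all groups.

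Of 22 nucleoside, vitamin, choline and heme carriers, 13 were tested. Against GFP shRNA 3 were higher and 2 lower, with 17.3% and 15.8% of all probe sets so called. Against vehicle 2 were higher and 3 lower, with 18.9% and 18.7% of all. The 3 higher fell to 1 when vehicle array 1, GFP arrays 1 or 2, or Jnk1 arrays 1, 2, 4 or 5 were left out, and the 3 lower against vehicle became 5 without vehicle array 1. Slc46a3, in the lysosomal membrane, was the carrier with the smallest p in both comparisons. It read 325, 307, 251, 301 and 263 with vehicle, 247, 251, 238 and 254 with GFP shRNA and 68.2, 56.7, 46.0, 51.9 and 52.6 with Jnk1 shRNA. The highest Jnk1 shRNA array was far below the lowest of the others. Slc46a3 was 4.53-fold lower than with GFP shRNA, a log2 fold change of -2.18 ± 0.11 (SE, adjusted p = 2.32e-09), and its value was -2.40 ± 0.11 (SE, adjusted p = 2.73e-10) against vehicle. With the spike-in covariate the value against GFP shRNA was -2.29, adjusted p = 7.32e-07. Its relative Slc46a1, the intestinal folate carrier, did not pass (0.10 ± 0.09, SE; adjusted p = 0.429).

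Slc44a1, which imports choline, read 234, 256, 260, 263 and 220 with vehicle, 209, 216, 230 and 188 with GFP shRNA and 339, 373, 394, 446 and 407 with Jnk1 shRNA. Every Jnk1 shRNA array was above all others, by 0.89 ± 0.09 (SE, adjusted p = 3.43e-06) against GFP shRNA and 0.66 ± 0.09 (SE, adjusted p = 2.06e-05) against vehicle. Of the vitamin C carriers, Slc23a2 was lower, at -0.46 ± 0.11 (SE, adjusted p = 0.00580) and Slc23a1 gave 0.34 ± 0.13 (SE, adjusted p = 0.0461) against GFP shRNA. The first call was lost under median scaling or with the spike-in covariate. The second was lost on dropping any 1 of 10 arrays (vehicle 1 and 5, GFP 1, 2, 3 and 5, and Jnk1 1, 2, 4 and 5) and under 3 other settings. Slc19a1, the reduced folate carrier, did not pass (-0.21 ± 0.18, SE; adjusted p = 0.401). Slc29a1, a nucleoside carrier, was lower than with vehicle, at -0.57 ± 0.15 (SE, adjusted p = 0.00616) and gave -0.19 ± 0.16 (SE, adjusted p = 0.388) against GFP shRNA.

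Most glucose and sugar carriers did not pass, like most of all probe sets tested. Over all probe sets, 33.1% were called against GFP shRNA and 37.6% against vehicle. Of 19 sugar carriers, 14 were tested, with 1 higher and 1 lower against GFP shRNA and 1 higher and 2 lower against vehicle. With single arrays left out these counts ranged from 1 to 3, 1 to 2, 0 to 2 and 1 to 3, most of the 14 arrays changing at least 1 of them. Slc2a2, the glucose carrier GLUT2 of hepatocytes, read 2094, 1734, 1824, 1992 and 1987 with vehicle, 1748, 1333, 1789 and 1878 with GFP shRNA and 1471, 1791, 1613, 1606 and 1744 with Jnk1 shRNA. The groups overlapped, with -0.03 ± 0.09 (SE, adjusted p = 0.847) against GFP shRNA and -0.23 ± 0.09 (SE, adjusted p = 0.0506) against vehicle. The second passed without vehicle array 2, GFP arrays 2 or 5 or Jnk1 array 2, with adjusted p down to 0.0112. Slc37a4, which brings glucose 6-phosphate into the endoplasmic reticulum, gave 0.23 ± 0.09 (SE, adjusted p = 0.0768) against GFP shRNA, and 0.30 (adjusted p = 0.0260) without GFP array 1. Slc2a1 and Slc2a4, known from other tissues, gave 0.57 and 0.75 (adjusted p = 0.211 and 0.0501) against GFP shRNA. Without GFP array 2 they gave 1.04 (adjusted p = 0.00539) and 0.89 (adjusted p = 0.0378), and Slc2a4 also passed without GFP array 5 or Jnk1 arrays 2 or 3. Another probe set of Slc2a1 was called higher, at 0.90 (adjusted p = 0.0206) against GFP shRNA and 0.95 (adjusted p = 0.00878) against vehicle. A further one gave 0.56 (adjusted p = 0.183) and 0.59 (adjusted p = 0.134) and did not pass.

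The sugar carrier that rose was Slc45a3, which read 86.9, 215, 100, 67.6 and 60.9 with vehicle, 76.1, 70.5, 55.3 and 62.9 with GFP shRNA and 171, 155, 171, 112 and 142 with Jnk1 shRNA. Vehicle array 2 was above all Jnk1 shRNA arrays. Slc45a3 was higher than with GFP shRNA by 1.17 ± 0.27 (SE, adjusted p = 0.00371), lost with the spike-in covariate (0.87, adjusted p = 0.166), and gave 0.64 ± 0.26 (SE, adjusted p = 0.0625) against vehicle, or 0.94 (adjusted p = 0.000426) without vehicle array 2. Slc2a9, a carrier of urate, was lower, at -0.40 ± 0.11 (SE, adjusted p = 0.0126) against GFP shRNA and -0.51 ± 0.11 (SE, adjusted p = 0.00124) against vehicle. The first of these was lost under median scaling and with the spike-in covariate, and the second with the covariate.

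All 6 nucleotide sugar and acetyl-CoA carriers of the endoplasmic reticulum and Golgi were tested. Against GFP shRNA 3 were higher and 0 lower, with 17.3% and 15.8% of all probe sets so called. Against vehicle 2 were higher and 0 lower, with 18.9% and 18.7% of all. Slc35a2, which brings UDP-galactose into the Golgi, read 57.1, 69.8, 64.2, 46.2 and 51.2 with vehicle, 63.2, 53.8, 41.1 and 53.8 with GFP shRNA and 78.5, 96.8, 88.8, 95.1 and 86.2 with Jnk1 shRNA. The Jnk1 shRNA arrays were above all others, by 0.76 ± 0.15 (SE, adjusted p = 0.00103) against GFP shRNA and 0.64 ± 0.14 (SE, adjusted p = 0.00203) against vehicle. Slc35a4 was higher by 0.46 ± 0.11 (SE, adjusted p = 0.00433) and 0.63 ± 0.10 (SE, adjusted p = 0.000189). The first was lost with the spike-in covariate (0.50, adjusted p = 0.0535). Slc35a5 gave 0.32 ± 0.12 (SE, adjusted p = 0.0475) against GFP shRNA, which was lost in 13 alternative fits, and 3 of its other probe sets gave values below 0. Slc33a1, the acetyl-CoA carrier, did not pass (0.14 ± 0.09, SE; adjusted p = 0.216).

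Of 35 ion carriers, 14 were tested, with 1 higher and 4 lower in both comparisons. Over all probe sets the shares were 17.3% and 15.8% against GFP shRNA and 18.9% and 18.7% against vehicle. Against GFP shRNA the 4 lower became 2 without GFP array 3. Slc26a1, a sulfate and oxalate exchanger, was lower, at -0.51 ± 0.11 (SE, adjusted p = 0.00197) against GFP shRNA and at -0.71 ± 0.10 (SE, adjusted p = 4.99e-05) against vehicle. The first call was lost under median scaling (adjusted p = 0.0942). Slc12a9 was lower, at -0.73 ± 0.16 (SE, adjusted p = 0.00231) and Slc4a2, the chloride and bicarbonate exchanger AE2, was higher by 0.49 ± 0.11 (SE, adjusted p = 0.00290). Both calls were lost with the spike-in covariate. Slc12a2, a sodium, potassium and chloride cotransporter, was lower, at -0.51 ± 0.16 (SE, adjusted p = 0.0186) against GFP shRNA, a call lost without GFP array 3 and under 2 other settings (adjusted p up to 0.370).

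Slc4a1, the band 3 anion exchanger of red cells, was below the filter, at 2.90 to 37.0 on all arrays. Of the 4 erythroid markers on the array, Alas2 alone passed the filter, with a log2 fold change of -2.02 ± 0.14 (SE, adjusted p = 7.95e-08) against GFP shRNA and a summed marker intensity of 497 to 661 with GFP shRNA and 135 to 200 with Jnk1 shRNA. The part of red cell precursors in any carrier value was not tested. Of the carriers in no group above, Slc14a2, a urea carrier, read 33.8, 58.6, 18.5, 39.5 and 63.2 with vehicle, 46.1, 67.3, 73.0 and 80.8 with GFP shRNA and 31.5, 23.8, 23.0, 37.0 and 23.8 with Jnk1 shRNA. It was lower than with GFP shRNA, at -1.26 ± 0.31 (SE, adjusted p = 0.00488), lost with the spike-in covariate (-1.24, adjusted p = 0.0889), and gave -0.52 ± 0.29 (SE, adjusted p = 0.178) against vehicle, or -0.79 (adjusted p = 0.0164) without vehicle array 3. The other probe set of Slc14a2 passed in neither comparison, at -0.36 (adjusted p = 0.110) against GFP shRNA and -0.30 (adjusted p = 0.154) against vehicle. Slc4a1ap, Slc9a3r1 and Slc9a3r2, which the symbol rule also took in, encode proteins that bind carriers and are not carriers. The counts of carriers given here include them. Slc4a1ap was higher by 0.95 ± 0.27 (SE, adjusted p = 0.0129) against GFP shRNA, and by 0.67, adjusted p = 0.0380 without GFP array 2. The call was lost with the spike-in covariate (1.08, adjusted p = 0.0925). Slc9a3r1 did not pass. Slc9a3r2 was lower than with vehicle, at -0.40 ± 0.13 (SE, adjusted p = 0.0239), and gave -0.13 ± 0.14 (SE, adjusted p = 0.504) against GFP shRNA. Its call against vehicle was lost with the spike-in covariate and without vehicle array 1 or Jnk1 arrays 4 or 5.

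Where a called carrier had a further probe set above the filter, the probe sets were compared. Against GFP shRNA 20 called genes had one, and in 8 of them none of the others was called in the same direction. Against vehicle these counts were 21 and 6. None of the other probe sets annotated to a called gene alone was called in the opposite direction. The probe set annotated to both Slc22a30 and Slc22a29 was called higher, at 2.92 against GFP shRNA and 3.63 against vehicle. Slc22a30 itself was called lower in both comparisons. Some carriers that did not pass against GFP shRNA had another probe set that was called. These included Slc2a1 (0.90, adjusted p = 0.0206), Slc35a3 (0.47, adjusted p = 0.0137) and Slc39a14 (-0.41, adjusted p = 0.0298). For Slc45a2 the probe sets differed in direction, at -0.76 (adjusted p = 0.0550) and 1.32 (adjusted p = 0.00122).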

How the data were processed

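The labels describe liver RNA of 14 samples on 1-colour Affymetrix arrays. The deposited values were linear intensities, 1 per probe set, already scaled: their trimmed means were 150.05 to 150.06 on each array. The software that made them is not given in the sources used here. Array medians spanned 0.48 on the log2 scale, above the limit of 0.2, so the intensities were quantile normalized. The normalized values were then floored at their 5th percentile (2.01) and taken to log2.

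The 64 control probe sets and the dimmest 40% were left out, which left 13575 (lowest mean 28.4). Group means were fitted to all 14 arrays with limma 3.58.1 in R 4.3.3, letting the variance follow intensity, with Benjamini-Hochberg adjustment over all probe sets kept. The number of arrays limits the precision. The script was tested on simulated data.

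Of the probe sets, 20393 had 1 gene symbol, 691 several and 1606 none in the platform annotation. All 224 carriers matched the RefSeq table of GRCm38.p6 by Entrez identifier, and 174 had an upstream window in the RefSeq promoter table. The first window listed per gene was used.

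Genes were named by a rule: per comparison the 8 largest rises and the 8 largest drops among called carriers whose groups do not overlap, plus 42 carriers chosen for roles in liver. Of the 42, 34 were tested here. Other carriers named, such as Slc38a10, Slc31a1, Slc17a3, Slc22a30, Slc30a6, Slc23a1, Slc23a2, Slc2a9, Slc26a1 and Slc35a5, were chosen after their values were seen. Members, roles, the bile acid list and the marker lists were chosen with earlier results of these data known.

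Alternatives were the deposited values without the quantile step, scaling to the same median, a pseudocount of 16, no filter or a filter of 60%, no trend, robust moderation, array weights, only the groups compared, the replicate number as a block, the spike-in level as a covariate, p-values adjusted over 1 probe set per gene, other probe sets, and each array left out. A fit with 1 Jnk1 shRNA array, the one with the highest spike-in level, was added after seeing the data. Other marker lists gave these counts against GFP shRNA: 0 higher and 2 lower of 9 hepatocyte genes, 0 and 3 of 8 endothelial, 0 and 3 of 5 stellate, 0 and 0 of 4 T and NK cell, 0 and 1 of 2 B cell and 0 and 0 of 4 neutrophil genes tested. Against vehicle these were 0 and 4, 0 and 5, 0 and 3, 3 and 0 (median 1.39), 0 and 0, and 0 and 0. Between GFP shRNA and vehicle they were 0 and 1, 0 and 1, 1 and 0, 1 and 0, 0 and 0, and 0 and 0. Over all probe sets tested, 17.3% were higher and 15.8% lower against GFP shRNA, and 18.9% and 18.7% against vehicle. For GFP shRNA against vehicle the shares of all were 2.05% and 0.530%.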

Additional observations from a re-analysis of the deposited data

Results flagged for a closer look

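In 7 of 138 carrier groups tested by Dixon's criterion, 1 array lay far from the others of its group, and chance gives about 1 in 20. In log2 intensity, Slc16a1 was 8.29 on vehicle array 2, with the other vehicle arrays at 8.62 to 8.67. Slc4a1ap was 4.61 on vehicle array 3 against 5.66 to 5.77, and 4.19 on GFP array 2 against 5.33 to 5.48. Slc1a2 was 7.29 on GFP array 2 against 7.66 to 7.71. Slc27a2 was 11.82 on vehicle array 2 against 11.65 to 11.68, and 11.40 on GFP array 2 against 11.60 to 11.64. Slc1a4 was 1.80 on vehicle array 4 against 4.38 to 5.09.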

How the results depend on the processing

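Of the 54 carriers called against GFP shRNA, 48 kept their call with the deposited values, 40 with median scaling, 42 with no filter and 25 with the spike-in covariate, and 38 kept it with every single array left out. Against vehicle these counts were 53, 48, 51 and 35 of 55, and 46. Of all probe sets, 30.4% were called against GFP shRNA with median scaling and 17.3% with the spike-in covariate. Against vehicle, 22.2% of all were called with the covariate. With median scaling 19 carriers and 2 bile acid pathway genes were lower against GFP shRNA. With the spike-in covariate 9 carriers were higher and 18 lower against GFP shRNA and 13 were higher against vehicle, and Slco1b2 came to 0.00 against vehicle. The Jnk1 shRNA array with the highest spike-in level alone, a fit chosen after seeing the data that assumes the lone array varies like the other groups, gave 5 higher and 16 lower against GFP shRNA, 5 and 19 against vehicle, 2 and 3 bile acid pathway genes against GFP shRNA and 0.02 for Slco1b2 against vehicle. The cause of these differences was not tested. Between GFP shRNA and vehicle, 1 carrier was higher with the deposited values and 2 with array weights, and 1 bile acid pathway gene was higher with the stricter filter, array weights, only the groups compared, the spike-in covariate or 1 probe set per gene.

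With each array left out, carriers higher and lower numbered 17 to 23 and 25 to 31 against GFP shRNA, 18 to 23 and 32 to 38 against vehicle, and 0 to 1 and 0 to 2 between GFP shRNA and vehicle, where 0 to 1 bile acid pathway genes were higher. Other probe sets turned the sign for Slc35a5 (-0.30, -0.02 and -0.20), Slc45a2 (1.32), Slc4a4 (0.09) and Slco2a1 (-0.09) against GFP shRNA, for Slco1b2 (0.29), Slc37a3 (-0.05) and Slc4a4 (0.11) against vehicle, and for Slc45a2 (-1.57) between GFP shRNA and vehicle. The replicate numbers did not pair the samples (mean correlation 0.00 over 13 same-number pairs, from -0.24 to 0.12). With the replicate block there were 19 higher and 28 lower against GFP shRNA and 22 and 34 against vehicle. That is 34.6% and 41.2% of the carriers called, against 30.2% and 35.5% of all probe sets. Dim probe sets limit the precision: 88 carriers were below the filter and have no test.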
